A study of Caenorhabditis elegans with 6 samples.

Results

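The transcripts described here encode the core of the insulin-like signalling pathway of the nematode Caenorhabditis elegans: the receptor daf-2, the adaptor ist-1, the kinases age-1, pdk-1, akt-1, akt-2 and sgk-1, the lipid phosphatase daf-18 and the transcription factor daf-16. They were taken by their sequence names from the deposited table of gene counts, and all 9 were among its 46659 rows. RNA came from embryos of 2 genotypes, with 3 biological replicates each. The controls carried ced-3(n1286), a mutation in the caspase gene of programmed cell death, and the compared embryos carried dot-1.1(knu339) together with ced-3(n1286), so that both groups lack a normal ced-3 gene. The DOT-1.1 protein is related to mammalian DOT1L and methylates histone H3 at lysine 79. Animals were grown at 20 °C and eggs were freed from synchronized adults with hypochlorite. Neither the labels nor the protocols say which embryonic stages were collected or what the 2 alleles change in their genes. The kinase gene pdk-1 is a reported target of the complex of DOT-1.1 with the zinc finger protein ZFP-1, and the comparison asks whether its transcript, and those of the kinases around it, differ in level when dot-1.1 is mutant.

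In this pathway, insulin-like peptides bind the receptor tyrosine kinase DAF-2, which recruits the phosphoinositide 3-kinase AGE-1 directly or through adaptors such as IST-1. AGE-1 makes a membrane lipid that brings PDK-1 and its substrates AKT-1 and AKT-2 together, and the phosphatase DAF-18 removes that lipid. PDK-1 phosphorylates AKT-1, AKT-2 and SGK-1, and the AKT kinases phosphorylate the FOXO factor DAF-16 and keep it out of the nucleus. The pathway is known for its control of dauer entry, first-larval-stage arrest and lifespan.

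Library totals ran from 66316445 to 77957224 counts. The dot-1.1 transcript (Y39G10AR.18) was present in every library, at 66.9, 34.8 and 45.9 CPM (counts per 1000000 counts, scaled between libraries) in ced-3 replicates 1 to 3 and at 62.6, 28.6 and 36.2 CPM in the double mutants. This difference lay within the spread of the replicates (adjusted p = 0.806, edgeR). Within pairs of the same number it was lower in 3 of 3, by 0.095, 0.29 and 0.34 on the log2 scale, which did not pass with the block (log2 -0.24 ± 0.093 SE, adjusted p = 0.163, edgeR). Since the change made by the allele is not known here, this level does not check the labels. The summed level of 16 early embryo and maternal markers was 870 to 1259 CPM in the single and 642 to 1303 CPM in the double mutants. The summed level of 16 markers of late embryonic tissues was 2895 to 3663 against 3795 to 6468 CPM. Embryonic markers of both kinds were thus present in every library, while 7 markers of adult tissue, the yolk protein genes and col-19, summed to 1.33 to 2.26 CPM in the single and 3.65 to 4.15 CPM in the double mutants. Of these adult markers, col-19 was at 0 counts in the single mutants.

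The main result is that 0 of the 9 transcripts passed edgeR's quasi-likelihood test for a difference between the genotypes at an adjusted p under 0.05. The fitted changes were small, from -0.32 for daf-18 to 0.25 for sgk-1 on the log2 scale, with a median of 0.09 beside -0.02 over all 17365 tested genes. The adjusted p-values lay between 0.564 and 0.991. Across all tested genes this test called 0.0806%, so few calls were to be had in this comparison. At an unadjusted p under 0.05 it picked 0 of the 9, where it picked 7.57% of all genes as higher and 4.5% as lower. DESeq2, which called 2.25% of all genes higher and 0.559% lower, and limma-voom, which called 0.0864%, also called 0 of the 9 without the block. All 9 were well counted, at 1171 to 19633 counts in a library, and passed the filter on low counts in both genotypes.

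Replicate numbers were shared between the genotypes, and a second fit took the number as a block, that is, compared the libraries within pairs. It called 0 of the 9 and 4.01% of all genes. At an unadjusted p under 0.05 it picked 1 higher, sgk-1, and 1 lower, daf-18, of the 9, beside 11.6% of all genes as higher and 12.9% as lower. DESeq2 with the block called 1 of the 9, daf-18, lower, and 5.96% of all genes higher and 5.57% lower.

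**Figure D1:**
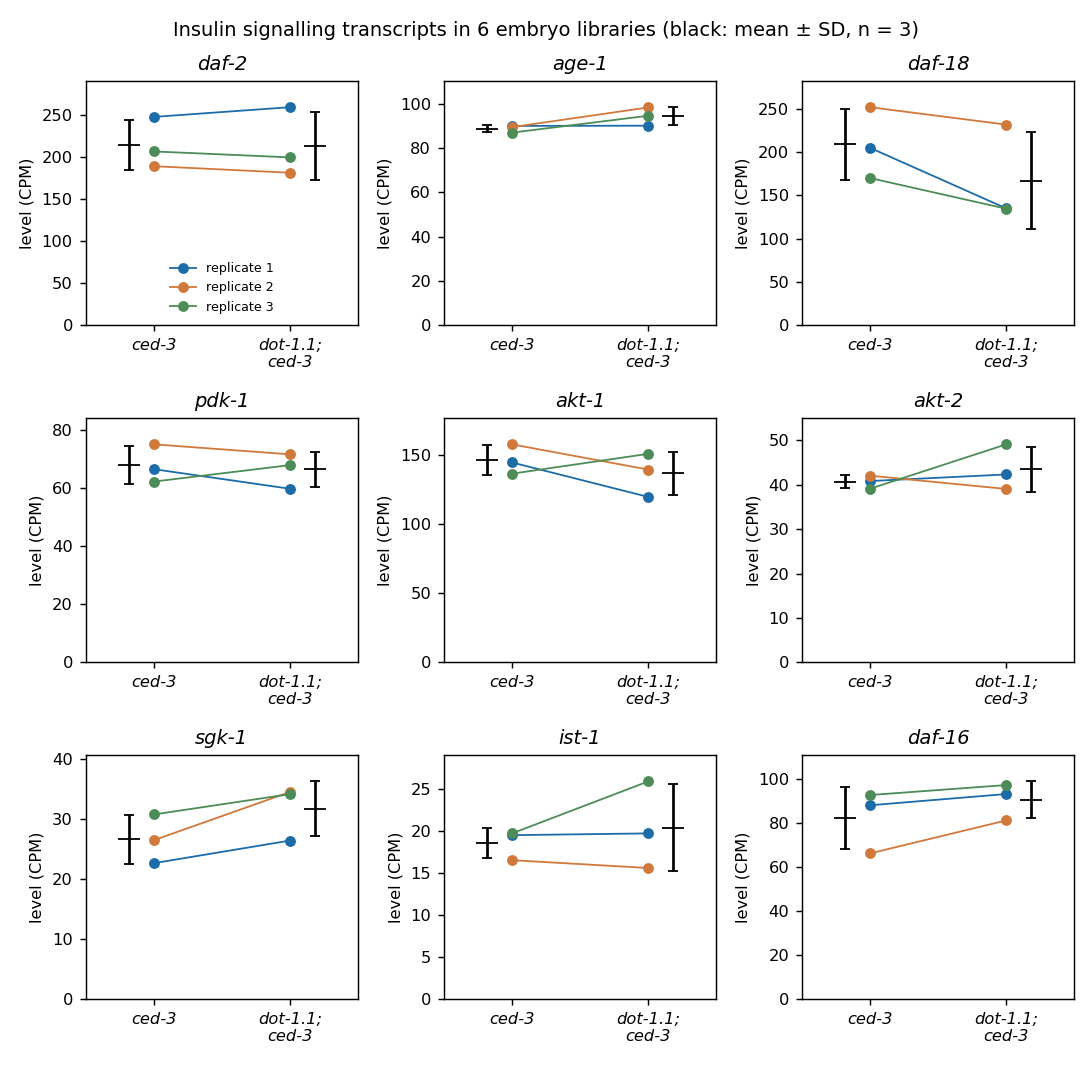
Level of each transcript (y axis, CPM, from 0) in single mutants (ced-3) and double mutants (dot-1.1; ced-3), lines joining libraries of the same replicate number and black bars for the mean ± SD of 3 libraries. The daf-18 lines all go down and those of age-1, sgk-1 and daf-16 all go up, while each of the other transcripts has lines in both directions.

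The transcript of pdk-1 (H42K12.1, chromosome X, 1321344 to 1327986 on WBcel235), which encodes the kinase that phosphorylates AKT and SGK kinases, was at 66.6, 75.2 and 62.4 CPM in the single mutants and at 59.9, 71.8 and 68.0 CPM in the double mutants. The ranges overlapped, and replicate 2 was the highest library in both genotypes. The means were 68.1 ± 6.55 and 66.6 ± 6.07 CPM (SD, n = 3 each), a fold change of 0.978 with a 95% confidence interval of 0.802 to 1.19 (log2 -0.03 ± 0.13 SE, adjusted p = 0.934, edgeR). This interval leaves out larger changes of pdk-1 but not smaller ones. With the block the interval was narrower, 0.847 to 1.13, but the pairing behind it is not established. Within pairs pdk-1 was lower in replicates 1 and 2, by 0.15 and 0.068 on the log2 scale, and higher by 0.13 in replicate 3. The fitted sign turned to 0.039 with upper quartile scaling and to 0.048 without ced-3 replicate 2, so these libraries show no direction for it. In the annotation, 15 of the 2423 exonic bases of pdk-1 overlap F21E9.2 on the other strand.

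The 3 genes whose levels across the 6 libraries were most like those of pdk-1, among 8476 other genes with a mean of at least 10 CPM, were parn-2, mrps-31 and rpb-6. Their Pearson correlation with pdk-1 was 0.99, 0.98 and 0.98 over the same 6 libraries, given as a description. Because they were picked for following pdk-1, which did not differ, their adjusted p-values (0.927, 0.905 and 0.769, edgeR) are no further result.

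The partner gene zfp-1 (F54F2.2) was at 239 ± 44.1 CPM in single mutant libraries and at 329 ± 22.6 CPM in double mutant libraries (SD, n = 3 each). It did not pass without the block (adjusted p = 0.317, edgeR) and was higher with it (log2 0.47 ± 0.10 SE, adjusted p = 0.0412). Part of its exons overlaps F54F2.14 on the same strand and ztf-1 on the other, so reads of these genes may be shared.

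Upstream of pdk-1, the insulin receptor gene daf-2 (Y55D5A.5, chromosome III, 2994514 to 3040846) was at 248, 189 and 207 CPM in the single and 260, 182 and 200 CPM in the double mutants. Both genotypes had the same order, with replicate 1 highest and replicate 2 lowest, and the pairs differed by -0.061 to 0.066 on the log2 scale. The fitted fold change was 0.995 (95% interval 0.768 to 1.29, and 0.871 to 1.13 with the block). Of the members, daf-2 had the smallest fitted change.

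The adaptor gene ist-1 (C54D1.3, chromosome X, 7126648 to 7139666), whose product resembles insulin receptor substrates, was at 19.5, 16.5 and 19.7 CPM in the single and 19.7, 15.6 and 25.9 CPM in the double mutants. Double mutant replicate 3 was the highest library, and the others of that genotype lay within 0.084 log2 units of their partners. Its fold change was 1.098 (95% interval 0.798 to 1.51, adjusted p = 0.801, edgeR), and without double mutant replicate 3 the fitted log2 change was -0.062.

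The catalytic kinase subunit gene age-1 (B0334.8, chromosome II, 11519328 to 11527054) varied least. It was at 90.0, 89.5 and 87.0 CPM in the single and at 90.1, 98.4 and 94.6 CPM in the double mutants. The genotypes did not overlap, but the lowest double and the highest single mutant library were nearly equal. Such a separation with the double mutants higher was found for 10.6% of all tested genes and for 1 of the 9 members, and one with them lower for 7.91% and for 0 of the 9. Its means were 88.9 ± 1.62 CPM for the single and 94.4 ± 4.12 CPM for the double mutants (SD, n = 3 each), and the fold change of 1.06 had a 95% interval of 0.902 to 1.25 (adjusted p = 0.747, edgeR). In the annotation, 192 of its 3929 exonic bases overlap B0334.10 on the other strand. The regulatory subunit gene aap-1, the partner of AGE-1, was at 45.8 ± 5.72 against 40.8 ± 3.13 CPM (SD, n = 3 each; adjusted p = 0.628, edgeR), named here for its role and after its values were seen.

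The phosphatase gene daf-18 (T07A9.6, chromosome IV, 420011 to 425177), which opposes AGE-1, had the largest fitted change and the largest spread of the members. It was at 205, 252 and 170 CPM in the single and at 135, 232 and 134 CPM in the double mutants. Each double mutant library lay below its partner of the same number, by 0.60, 0.12 and 0.34 on the log2 scale, but double mutant replicate 2 lay above 2 of the single mutant libraries. The means were 209 ± 41.1 and 167 ± 56.0 CPM (SD, n = 3 each), and these differ by less than the replicates do among themselves (log2 -0.32 ± 0.24 SE, fold 0.800, 95% interval 0.549 to 1.16, adjusted p = 0.593, edgeR). With the block the fold was 0.783 (0.663 to 0.924, adjusted p = 0.0894, edgeR), which does not pass. DESeq2 with the block called it lower (adjusted p = 0.0382), as it did 5.57% of all genes. Without pair 2, edgeR with the block called it too (log2 -0.47 ± 0.09 SE, adjusted p = 0.000198), together with 6.39% of all genes as lower, and without pair 1 or pair 3 it did not (adjusted p = 0.435 and 0.332). Over all alternatives its adjusted p ran from 0.000198 to 0.888 and its fitted change stayed below 0.

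The level of daf-18 moved with the summed early embryo markers across the libraries. The sums were 1111, 1259 and 870 CPM in the single and 642, 1303 and 711 CPM in the double mutants. Replicate 2 was the highest of its genotype in both measures, and double mutant replicates 1 and 3 were the lowest of all 6 libraries in both. Of the 16 early markers, 16 were tested and 16 had a fitted change below 0, as had 9054 of all 17365 tested genes. With the block 1, nos-2, fell (log2 -0.69, adjusted p = 0.0386, edgeR), beside 1.45% of all genes. Without the block 0 passed in edgeR, and 1 was lower at an unadjusted p under 0.05, beside 4.5% of all genes. DESeq2 and limma-voom without the block called 0 early markers. DESeq2 with the block called 4 of them lower, beside 5.57% of all genes. No early marker was at 0. Of the 16 late markers, 9 rose and 0 fell in edgeR with the block, beside 2.57% and 1.45% of all genes. DESeq2 with the block called 10 higher, beside 5.96%. The late markers did not all go the same way: 12 had a fitted change above 0 and 4 below (edgeR without the block). Those below were rol-6 (log2 -0.35), ges-1 (-0.14), dpy-7 (-0.098) and elt-2 (-0.068). Without the block edgeR and limma-voom called 0 late markers. DESeq2 without it called 4 higher, beside 2.25% of all genes. At an unadjusted p under 0.05 in edgeR without the block 9 were higher, beside 7.57% of all genes. The part of these markers in the daf-18 values was not tested. In whole embryos, fewer cells of a type and less RNA per cell cannot be told apart.

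**Figure D2:**
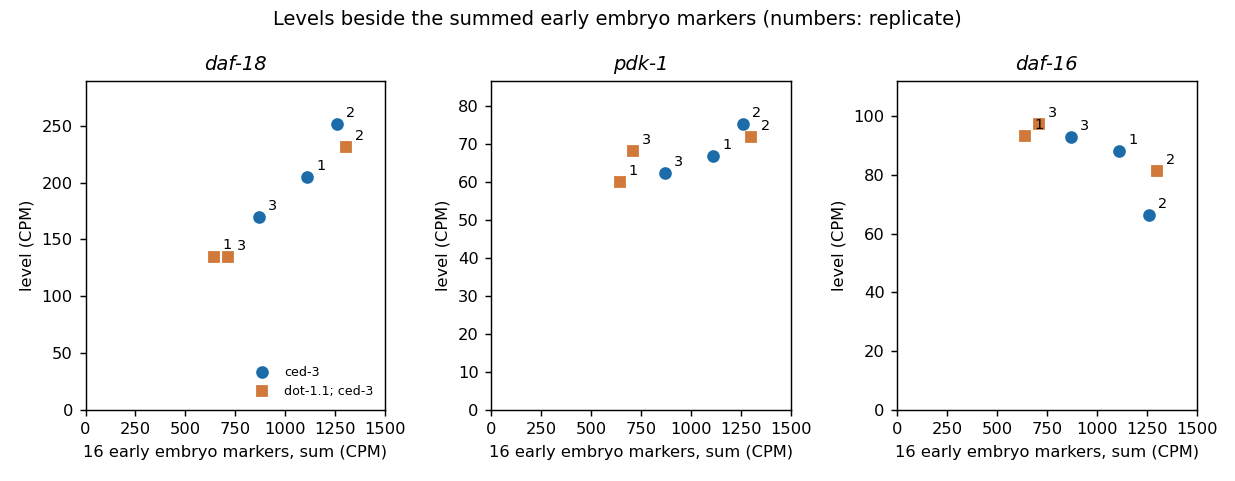
Level of daf-18, pdk-1 and daf-16 (y axes, CPM) against the summed level of 16 early embryo and maternal markers (x axis, CPM) in the 6 libraries, with numbers for the replicate. The libraries with the highest marker sums, replicate 2 of each genotype, had the highest daf-18 (252 and 232 CPM) and pdk-1 (75.2 and 71.8 CPM) and the lowest daf-16 (66.3 and 81.3 CPM).

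Below pdk-1, the kinase gene akt-1 (C12D8.10, chromosome V, 10248905 to 10252845) was at 145, 158 and 137 CPM in the single and at 120, 140 and 151 CPM in the double mutants. The ranges overlapped, with double mutant replicate 1 lowest and single mutant replicate 2 highest. The fold change was 0.934 (95% interval 0.766 to 1.14, adjusted p = 0.765, edgeR). Its paralogue akt-2 (F28H6.1, chromosome X, 14147700 to 14152070) was at 40.9, 42.1 and 39.1 CPM against 42.3, 39.1 and 49.1 CPM, where double mutant replicate 3 stood above the other libraries. Its fold change was 1.07 (95% interval 0.871 to 1.31, adjusted p = 0.775, edgeR).

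The kinase gene sgk-1 (W10G6.2, chromosome X, 16254842 to 16262122), a PDK-1 substrate that also acts downstream of TORC2, was at 22.6, 26.4 and 30.7 CPM in the single and at 26.4, 34.5 and 34.1 CPM in the double mutants. Every double mutant library lay above its partner, by 0.22, 0.38 and 0.15 on the log2 scale, while the genotypes overlapped. The means were 26.6 ± 4.05 and 31.6 ± 4.56 CPM (SD, n = 3 each), a fold change of 1.19 with a 95% interval of 0.910 to 1.56 (adjusted p = 0.564, edgeR). With the block the interval was 1.01 to 1.41, and the adjusted p of 0.188 did not pass.

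At the end of the pathway, the FOXO gene daf-16 (R13H8.1, chromosome I, 10750498 to 10776703) was at 88.2, 66.3 and 92.9 CPM in the single and at 93.3, 81.3 and 97.4 CPM in the double mutants. Replicate 2 was lowest in both genotypes, and the double mutant was higher in 3 of 3 pairs. The log2 change was 0.14 ± 0.15 SE (95% interval of the fold 0.868 to 1.39, adjusted p = 0.724, edgeR). The annotation gives daf-16 11 transcripts, which the gene counts do not separate, and the same holds for the 7 of daf-2.

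**Figure D3:**
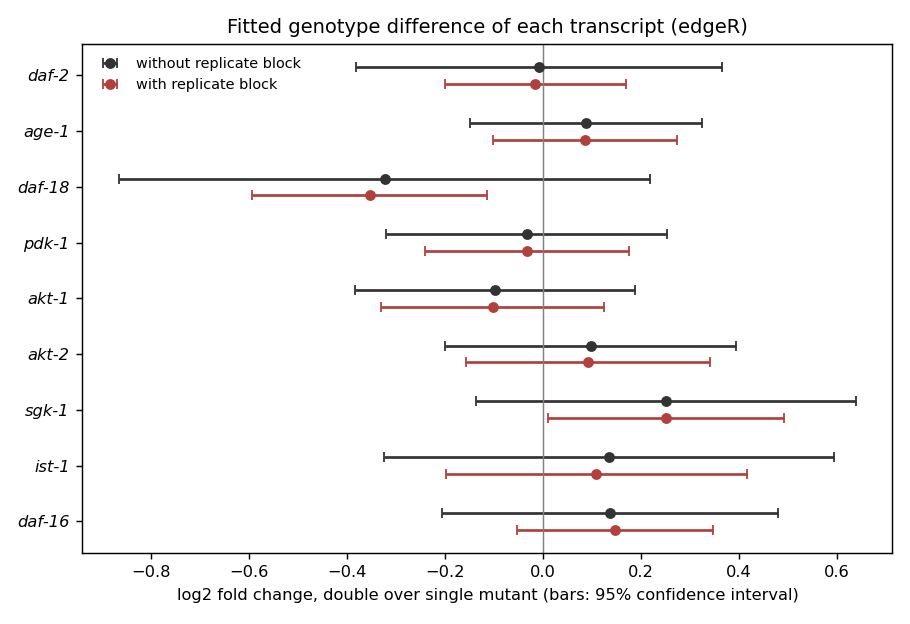
Fitted log2 fold change of each transcript (x axis, double over single mutant) with its 95% confidence interval, from edgeR without (black) and with (red) the replicate block. The blocked intervals of daf-18 (-0.59 to -0.11) and sgk-1 (0.01 to 0.49) leave out 0 before adjustment over all genes, and the other blocked intervals include it.

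Ratios within a library need no scaling between libraries, and 3 of them were compared by a two-sided exact permutation test, which cannot go below 0.1 with 3 against 3. The ratio of age-1 to daf-18, kinase to opposing phosphatase, was 0.373, 0.302 and 0.435 per exon length in the single and 0.567, 0.360 and 0.597 in the double mutants. It was higher in 3 of 3 pairs and its geometric mean went from 0.366 to 0.496 (exact p = 0.3, adjusted p = 0.3). The ratio of akt-1 to akt-2 was 3.71, 3.92 and 3.65 against 2.96, 3.73 and 3.21, lower in 3 of 3 pairs (exact p = 0.3, adjusted p = 0.3). That of sgk-1 to akt-1 was 0.218, 0.233 and 0.313 against 0.307, 0.344 and 0.314, higher in 3 of 3 pairs (exact p = 0.2, adjusted p = 0.3). None of the ratios passed, and the akt-1 transcript was the more abundant of each pair in which it stood in every library.

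Levels per exon length (CPM per kb of annotated exon) had the same top and bottom in both genotypes. In the single mutants akt-1 was at 64.3 ± 4.71 and daf-18 at 62.6 ± 12.3 CPM per kb (SD, n = 3 each), and their libraries overlapped. Both stood above pdk-1, at 28.1 ± 2.70 CPM per kb, in every library of either genotype. The next genes, daf-2 at 25.9 ± 3.63, age-1 at 22.6 ± 0.412 and daf-16 at 22.4 ± 3.84 CPM per kb, each overlapped with the gene before them. Below daf-16 and without overlap came akt-2 at 17.1 ± 0.622 CPM per kb, which overlapped with sgk-1 at 16.3 ± 2.47. Last came ist-1 at 4.69 ± 0.448 CPM per kb, below every other member in each library. In the double mutants the order differed only in that daf-16 stood before age-1 and sgk-1 before akt-2, pairs that overlapped. These levels use the exons of all annotated transcripts, so a gene expressed mainly as a short isoform is set too low.

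**Figure D4:**
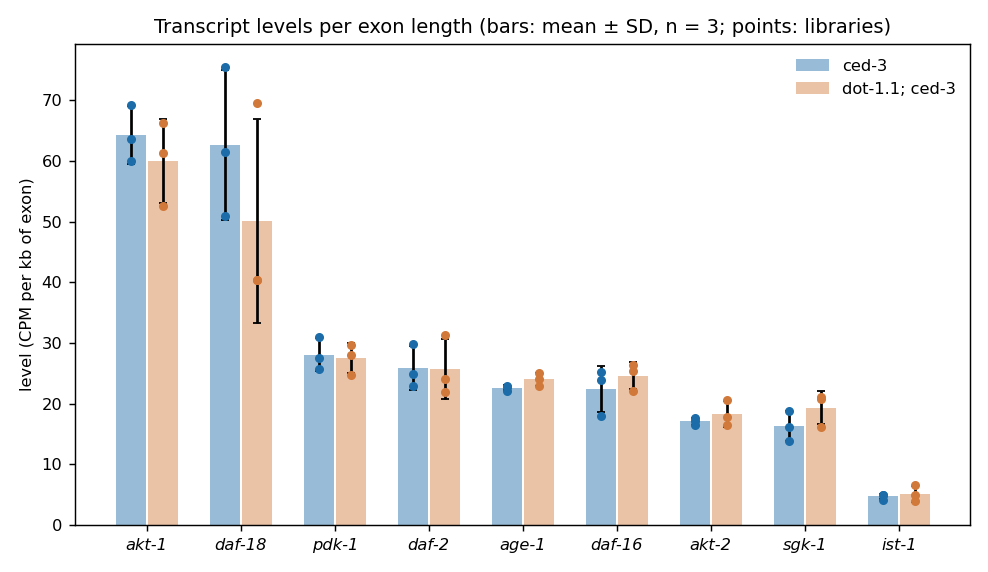
Mean level per exon length (y axis, CPM per kb of annotated exon, bars from 0) with SD (n = 3) and the single libraries as points, in order of the single mutant mean. The akt-1 and daf-18 bars stand above 50 CPM per kb, pdk-1 at 28.1 and 27.5, and ist-1 lies lowest at 4.69 and 5.15.

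The genes around this core were described by lists. Of 40 insulin-like peptide genes, the ligands of DAF-2, 39 were in the table and 21 had enough counts to be tested; the others had too few counts. Their summed levels were 23.8 to 27.2 CPM in the single and 21 to 26.7 CPM in the double mutants. Without the block 0 passed in edgeR and limma-voom called 0. At an unadjusted p under 0.05 in edgeR 2 were higher and 1 lower, beside 7.57% and 4.5% of all genes. By DESeq2 2 were higher and 1 was lower, beside 2.25% and 0.559%. In the blocked edgeR fit 2 rose and 0 fell, beside 2.57% and 1.45% of all genes. DESeq2 with the block again had 2 higher and 1 lower, beside 5.96% and 5.57%. The genes that rose in edgeR were ins-4 (ZK75.1), from 0.178, 0.128 and 0.0686 to 0.723, 0.986 and 0.373 CPM (5.48-fold, adjusted p = 0.0363, edgeR with the block), and ins-20 (ZK84.7), with 5, 16 and 0 counts against 59, 130 and 21 (log2 change 3.60 ± 0.58 SE, adjusted p = 0.0226). Both were higher in every double mutant library, at levels under 2 CPM. The filter on low counts kept both through the double mutant libraries, so their entry to the test depended on the group in which they were high. The ligands with the most counts were ins-2 (ZK75.2), at 9.29 ± 0.631 against 5.53 ± 1.43 CPM (SD, n = 3 each; adjusted p = 0.284 without and 0.0712 with the block, edgeR), and ins-1 (F13B12.5), at 5.03 ± 1.36 against 4.56 ± 0.536 CPM. The median log2 change of the tested ligands was 0.14.

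Of 28 partners and regulators of the pathway, among them the 14-3-3 proteins that hold phosphorylated DAF-16, the TOR complexes and the phosphatase subunit PPTR-1, all 28 were tested and 0 passed in either edgeR fit. At an unadjusted p under 0.05 without the block 1 was higher and 1 lower, beside 7.57% and 4.5% of all genes. The higher one, eak-4, had 6, 8 and 0 counts in the single and 16, 22 and 15 in the double mutants. The filter on low counts thus kept it through the double mutant libraries, where it was high. DESeq2 and limma-voom without the block called 0. DESeq2 with the block called 1 of the 28 lower, beside 5.57% of all genes. The median log2 change of the 28 was 0.0026. The 14-3-3 genes had the highest CPM of this list, par-5 at 551 ± 10.9 against 583 ± 39.9 CPM and ftt-2 at 486 ± 56.2 against 513 ± 51.7 CPM (SD, n = 3 each).

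The list of 18 other AGC kinases, relatives of PDK-1, AKT and SGK, lay mostly on the higher side, with 14 fitted changes above 0 and a median of 0.15. Without the block 0 passed in edgeR and 4 were higher at an unadjusted p under 0.05, as were 7.57% of all genes. DESeq2 without it called 1 higher, beside 2.25% of all genes, and limma-voom 0. With the block 2 rose and 0 fell in edgeR, beside 2.57% and 1.45% of all genes, and DESeq2 called 4 higher, beside 5.96%. The summed level of the late embryo markers was higher in every double mutant library, and their part in this list was not tested. The protein kinase A gene kin-1 (ZK909.2) was at 48.7, 44.4 and 46.3 CPM in the single and 82.3, 59.7 and 77.5 CPM in the double mutants, so the genotypes did not overlap (1.56-fold with the block, adjusted p = 0.0182, edgeR). The protein kinase C gene pkc-2 (E01H11.1) was at 39.3, 40.7 and 42.8 against 50.5, 52.8 and 59.3 CPM (1.32-fold with the block, adjusted p = 0.0452). Of the 18 kinases, 7 did not overlap between the genotypes, and those were higher in the double mutants, a separation found for 10.6% of all tested genes. Those with the highest CPM, let-502 at 282 ± 34.9 against 277 ± 14.1 CPM and pkn-1 at 281 ± 28.8 against 318 ± 2.22 CPM (SD, n = 3 each), did not pass. Whether this list differed from the members was not tested.

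Genes known in adults to be raised by DAF-16 did not move together. Of 14 listed, 12 were tested, 6 had a fitted change above 0 and 6 below, and 0 passed in either edgeR fit. Without the block 1, lys-7, was higher at an unadjusted p under 0.05, beside 7.57% of all genes. It had 15, 4 and 0 counts in the single and 57, 56 and 42 in the double mutants. The filter on low counts thus kept it through the double mutant libraries, where it was high. DESeq2 called 1 higher, beside 2.25% of all genes, and limma-voom called 0. With the block DESeq2 called 1 higher and 1 lower, beside 5.96% and 5.57% of all genes. The glyoxylate enzyme gene icl-1 was at 1513 ± 60.7 against 1339 ± 585 CPM (SD, n = 3 each). The small heat shock gene hsp-16.1 (T27E4.8), which shares its reads with a near-identical copy, ran from 42.4 to 785 CPM over the libraries, with replicate 1 highest in both genotypes.

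Of 7 genes known to be lowered by DAF-16, 4 had enough counts to be tested. Without the block 0 passed in edgeR (3 higher at an unadjusted p under 0.05, as were 7.57% of all genes). DESeq2 without it called 2 higher, beside 2.25% of all genes, and limma-voom 0. With the block 2 rose in edgeR, beside 2.57% of all genes, and DESeq2 called 3 higher, beside 5.96%. The first, dod-19 (ZK6.10), went from 11.3, 10.5 and 5.83 to 37.2, 38.1 and 25.4 CPM (3.73-fold with the block, adjusted p = 0.00102, edgeR). The second, dod-22 (F55G11.5), went from 0.444, 0.577 and 0.343 to 2.00, 2.24 and 0.604 CPM (3.20-fold, adjusted p = 0.0482). Both genes are also known as intestinal defence genes, and dod-17, the other listed gene named by its CPM, was at 4.78 ± 2.01 against 8.19 ± 4.02 CPM (SD, n = 3 each; adjusted p = 0.38 with the block, edgeR). The adult and late embryo marker sums were also higher in every double mutant library. Within the double mutants, replicate 1 was highest in the summed level of the 7 genes (57.1 CPM) and in the adult and late marker sums (4.15 and 6468 CPM). Within the single mutants, replicate 2 had the highest summed level of the 7 genes (20.3 CPM) and the lowest adult and late marker sums (1.33 and 2895 CPM). There dod-19 itself was highest in replicate 1. The part of these markers in the result was not tested.

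**Figure D5:**
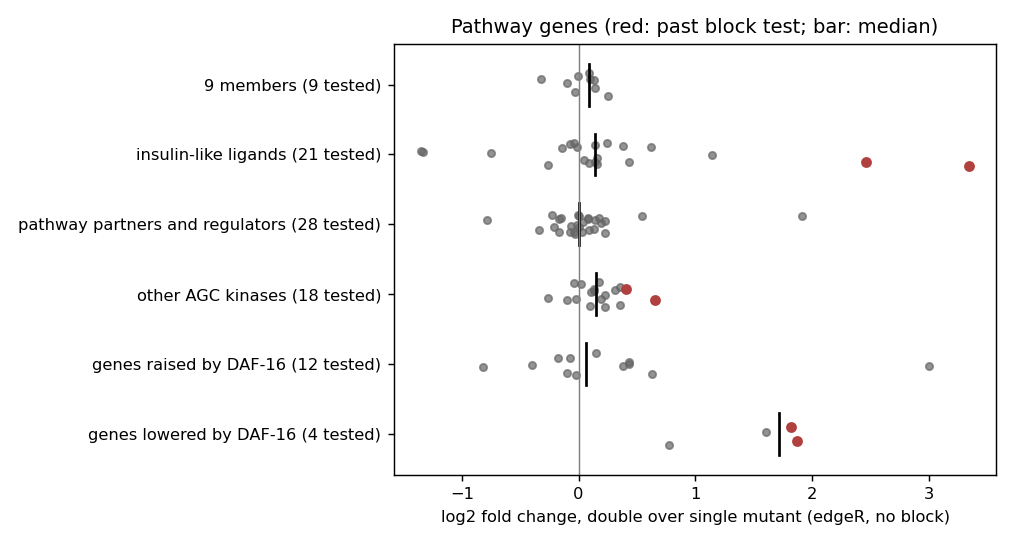
Fitted log2 fold change (x axis, double over single mutant, edgeR without the block) of the 9 members and of the tested genes of 5 lists, 1 point a gene, with a bar at the median and red for genes past the test with the block. The members lie between -0.32 and 0.25, and the red points are ins-4, ins-20, kin-1, pkc-2, dod-19 and dod-22.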

How the data were processed

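Strand-specific libraries of ribosomal RNA-depleted total RNA were sequenced, per the labels' protocols. The authors deposited raw read counts per gene. HISAT2 2.0.5, StringTie and the build WBcel235 are named in the submitters' processing notes. How reads were assigned to genes, with which annotation release and whether by strand, is not given in these sources. Columns were assigned through the sample descriptions, and rows were named by exact sequence name from the Ensembl release 115 annotation of WBcel235 (46180 of 46659 rows matched 1 gene).

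The 17365 genes that passed filterByExpr were fitted in R 4.3.3 by edgeR 4.0.16 (TMM scaling, robust quasi-likelihood test, genotype as the only term), with two-sided p-values, Benjamini-Hochberg adjustment over the whole set of tested genes and a threshold of 0.05. The fit was tested on simulated data. CPM values include the TMM factors. Alternatives were other scalings, no filter, limma-voom 3.58.1, DESeq2 1.42.0, a replicate block, and leaving out libraries. After subtracting each genotype's mean, same-numbered libraries correlated at 0.169 to 0.32 and libraries of different numbers at -0.239 to 0.0587. The same-numbered values were above the limit of 0.1 set for pairing, so the blocked alternatives and within-pair differences used these pairs. The main fit did not. With 3 libraries a genotype these correlations are tied to each other, so they cannot establish pairing, and the labels name no shared day. The biological coefficient of variation was 0.265 without and 0.201 with the block. Replicates of a genotype differed by more than sampling noise (chi-square per degree of freedom 98 to 190). The labels call them biological replicates.

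The members and gene lists were chosen with earlier results of these data known. Named list genes were those past the test without the block, up to 5 past it with the block, and the 2 most abundant of each list; of the marker lists only those needed are named. Where no read was counted, up to 3 counts (0.0385 to 0.0452 CPM) remain possible from counting error alone.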

Additional observations from a re-analysis of the deposited data

How the results depend on the processing

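Over 16 alternatives for each of the 9 members, the fitted change of age-1, sgk-1 and daf-16 stayed above 0 and that of akt-1 and daf-18 below 0, and no member but daf-18 passed the test. The direction of daf-2, pdk-1, akt-2 and ist-1 turned in some alternatives. With upper quartile scaling, which put the median of all genes at 0.054, daf-2 was at 0.067 and pdk-1 at 0.039. Leaving out single libraries gave -0.18 to 0.13 for daf-2, -0.094 to 0.048 for pdk-1 and -0.062 to 0.32 for ist-1. With the replicate block, daf-2 was at 0.0073 without pair 2 and 0.028 without pair 3, pdk-1 at 0.018 without pair 1, and akt-2 and ist-1 at -0.0016 and -0.0087 without pair 3. The call of daf-18 was gained in DESeq2 with the block (log2 -0.35) and in edgeR with the block without pair 2 (-0.47), so 1 member was called lower in each. The 3 ratios kept their direction when any single library was left out. The within-pair mean of the age-1 to daf-18 ratio was 0.44 (log2). With complete pairs it must equal the difference of the genotype means, so it is no separate check.

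Over all genes the calls were 14 higher and 0 lower in the main test. They were 28 higher with upper quartile scaling, 4 without the filter, 391 higher and 97 lower in DESeq2, 446 and 251 with the replicate block, and 1035 and 967 in DESeq2 with the block. With the block they were 9 and 2 without pair 1, 1361 and 1115 without pair 2, and 160 and 21 without pair 3. Leaving out single libraries gave 1 to 42 higher and 0 to 1 lower. The cause of these shifts was not tested. With 3 libraries a genotype, the width of the interval printed for each member shows the precision of its change.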
